A study of Mus musculus with 6 samples.

Results

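The genes described here encode the matrix metalloproteases (MMPs), the ADAMTS proteases, the ADAMTS-like proteins and the tissue inhibitors of metalloproteases (TIMPs). They were chosen by gene symbol from a table of ovarian transcript levels: 51 of its 37924 genes carry a symbol of these families, and 33 of the 51 had a mean of at least 0.5 FPKM over 6 libraries and are called members. FPKM is a transcript level, the fragments counted for a gene divided by its transcript length and by the mapped fragments of its library. Each library was made from a pool of ovaries taken at postnatal day 14, with 1 ovary from each of 3 mice on a C57BL/6J/129S7/SvEvBrd background. Mice of both groups were homozygous for 1 floxed allele. The 3 control libraries are from mice that lacked Cre, and the 3 conditional knockout libraries, called cKO, from mice that also carried Gdf9iCre, a Cre recombinase under the promoter of the oocyte gene Gdf9. No group with Cre alone was analysed here. The recombinase acts in oocytes, whereas whole ovaries were sequenced, and pooling hides the spread between single mice.

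MMPs are zinc-dependent proteases that cut collagens, gelatin and other matrix proteins, and most are made as inactive precursors. ADAMTS proteases are secreted relatives that cut proteoglycans such as versican and aggrecan or trim procollagens, ADAMTS-like proteins share their matrix-binding modules without the protease domain, and TIMPs bind the active site of the proteases. In the ovary these proteins are known for the remodelling of the matrix around growing follicles and for rupture of the follicle wall at ovulation.

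The libraries held an estimated 19.6 to 24.9 M fragments. Markers of oocytes, granulosa cells, theca, stroma and endothelium were present in all 6 libraries. The cKO 3 library stood apart in 1 respect that touches members: 7 neutrophil marker genes summed to 637 FPKM there and to between 1.06 and 1.74 FPKM in the other 5 libraries. Control 3 differed from its group in the sum of 5 fat markers, at 37.0 FPKM against 14.2 to 17.0 FPKM elsewhere. Cfd and Fabp4 supplied most of that sum, at 13.98 and 15.2 FPKM. Plin1 went the other way, with its lowest value in control 3, at 4.95 FPKM. It rose in cKO, from a mean of 5.97 to 12.1 FPKM (limma adjusted p 0.0231).

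Within each family a few genes supplied most of the transcript. Mmp2, Mmp11, Mmp14 and Mmp23 together made up 94.6% ± 0.39 of the summed FPKM of MMP members in control and 93.9% ± 0.87 in cKO (SD, n = 3). Mmp2 encodes gelatinase A, Mmp14 the membrane-anchored protease that activates it, Mmp11 stromelysin-3, and Mmp23 a membrane-tethered protease that lacks the hemopexin domain of most MMPs. In control libraries Mmp2 was highest, at 77.6 to 84.2 FPKM, the ranges of Mmp11 (63.6 to 73.3 FPKM) and Mmp14 (60.6 to 66.3 FPKM) overlapped, and Mmp23 was below them at 49.7 to 54.2 FPKM. In cKO libraries Mmp14 lay above Mmp11 in every library, and Mmp11 and Mmp23 overlapped.

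Among ADAMTS genes, Adamts2, Adamts10 and Adamts19 made up 79.5% ± 1.21 of the summed FPKM in control and 73.0% ± 2.82 in cKO (SD, n = 3). The other 12 ADAMTS members had means of 0.57 to 10.5 FPKM, with Adamts9 the highest of them. Adamtsl2 led the ADAMTS-like genes, with a mean of 14.8 FPKM against at most 2.49 FPKM for Adamtsl1, Adamtsl4 and Adamtsl5. The TIMP genes kept 1 order in all 6 libraries, without overlap of their ranges: Timp2 at 62.7 to 96.9 FPKM, Timp3 at 34.8 to 47.4 FPKM and Timp1 at 23.4 to 30.4 FPKM.

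**Figure D1:**
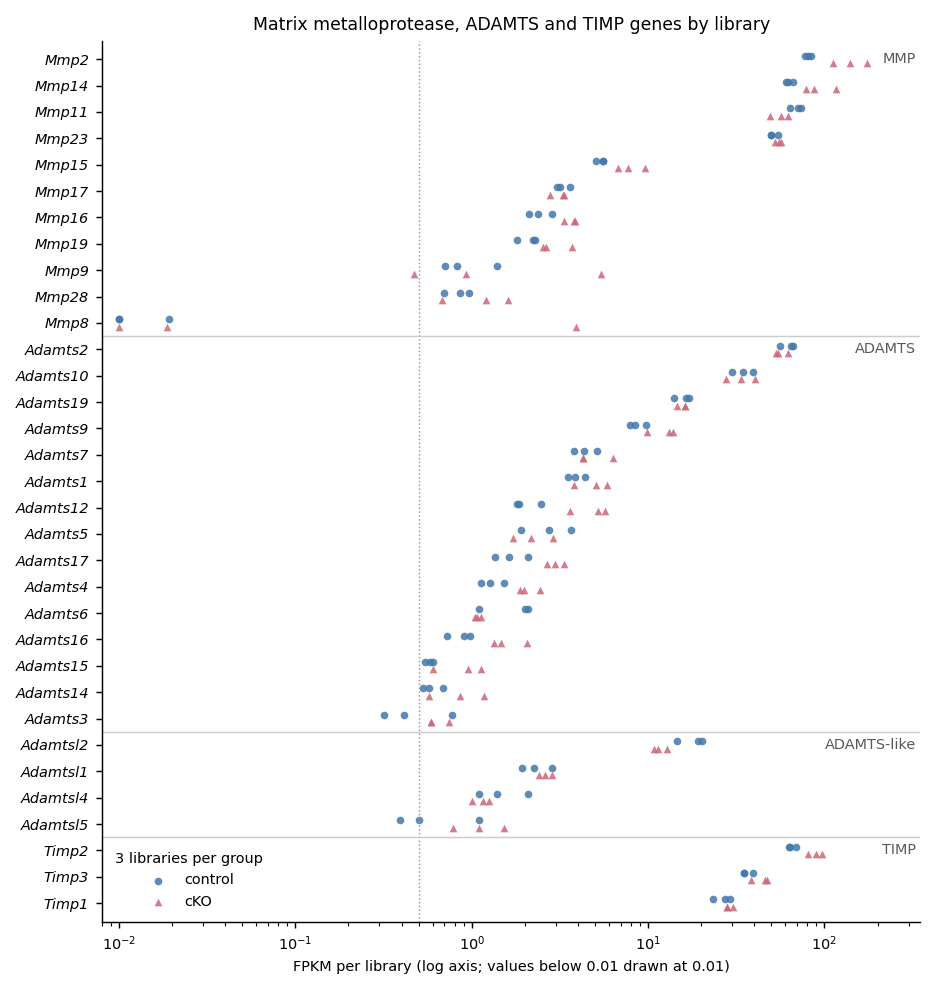
FPKM of the 33 member genes in each library on a log axis, grouped by family and ordered by mean level, with circles for the 3 control and triangles for the 3 cKO libraries; the dotted line marks 0.5 FPKM. Mmp2, Mmp14 and Timp2 are abundant and lie higher in cKO without overlap, while the single high triangle of Mmp8, at 3.90 FPKM, is cKO 3.

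Mmp2, Timp2 and Adamts12 rose in cKO ovaries and no member fell, out of 33 tested. That is 9.09% of the members, where 4.33% of all 14934 genes tested passed the same threshold, an adjusted p below 0.05 in limma (2.24% higher and 2.09% lower in cKO). Over all genes 334 passed as higher and 312 as lower, against 254 and 577 after median centring and 270 and 421 after quantile normalisation. Without control 3 and cKO 3, the libraries with the highest sums of fat and of neutrophil markers, Timp2 and Adamts12 passed. Mmp2 did not pass in that fit (adjusted p 0.108), where 3.15% of all genes passed. The verbs rose and fell are used only of genes that passed. At an unadjusted p below 0.05, 12 members were higher and 2 lower, against 14.5% and 9.8% of all genes. The groups did not overlap for 13 members, 39.4% of them, 11 higher and 2 lower, against 30% of all genes, 18% higher and 12% lower. The log2 change was positive for 24 of 33 members, 72.7%, against 58.5% of all genes. Its median was 0.25 over members and 0.05 over all genes. The MMP members had a median of 0.43, the ADAMTS members 0.22, the ADAMTS-like members -0.05 and the TIMP members 0.26. The MMP median was the value of Mmp9, and Mmp8 passed the limit of 0.5 FPKM through cKO 3 alone. Without these 2 genes, a choice made after seeing the data, the MMP median was 0.34 over 9 members and the median of all members 0.22, with 22 of 31 positive, and in the fit without cKO 3 the medians over all 11 MMP members and all 33 members were 0.39 and 0.34. Of the 33 members, 12 had their highest value in cKO 1, 9 in cKO 2 and 3 in cKO 3, while 9 were in control.

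**Figure D2:**
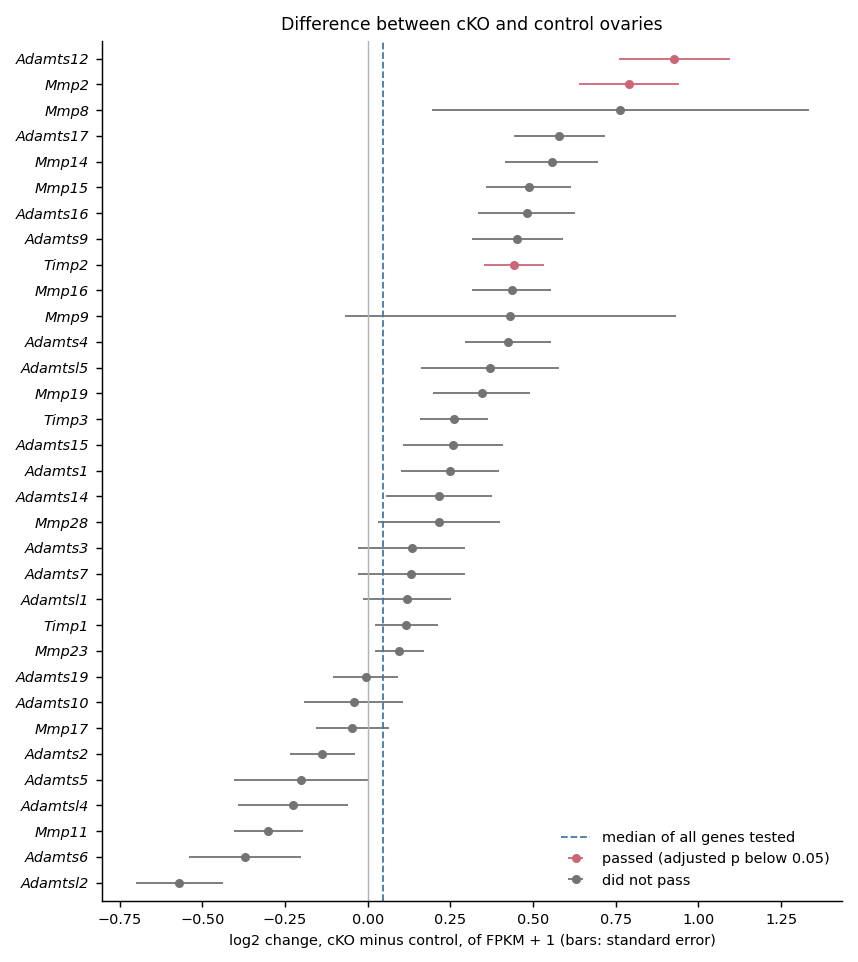
Difference between cKO and control for each of the 33 members on the log2(FPKM + 1) scale, with standard errors from limma; red points passed the threshold and the dashed line is the median of all 14934 genes tested. Adamts12, Mmp2 and Timp2 passed, Adamtsl2 lies lowest at -0.57, and Mmp8 and Mmp9 have the widest bars.

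The gelatinase gene Mmp2, whose product cuts denatured collagen and type IV collagen of basement membranes, read 80.4, 77.6 and 84.2 FPKM in control 1 to 3. It read 175, 112 and 140 FPKM in cKO 1 to 3. Every cKO library lay above every control library, and cKO 1 was highest. The means were 80.7 ± 3.34 and 143 ± 31.5 FPKM (SD, n = 3), and the log2 change was 0.79 (SE 0.15, limma adjusted p 0.0369). Mmp2 supplied 28.9% ± 1.61 of the summed FPKM of MMP members in control and 38.2% ± 2.25 in cKO. The gene lies on chromosome 8 (92827291 to 92853420, plus strand, GRCm38, GENCODE M21).

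On the cell surface, MMP14 binds TIMP2, and the bound TIMP2 holds the MMP2 precursor so that a neighbouring MMP14 molecule can cut it. Timp2 read 63.9, 62.7 and 69.4 FPKM in control 1 to 3 and 96.9, 90.1 and 80.9 FPKM in cKO 1 to 3. The groups did not overlap, and Timp2 rose by 0.44 on the log2 scale (SE 0.09, adjusted p 0.0416). Mmp14 read 66.3, 62.2 and 60.6 FPKM in control and 117, 79.0 and 87.2 FPKM in cKO. Its groups did not overlap either, and cKO 1 was again the highest, but the log2 change of 0.56 (SE 0.14) missed the threshold, with an adjusted p of 0.0718. The ratio of Timp2 to Mmp2 lay between 0.794 and 0.824 in the controls and was 0.554, 0.803 and 0.577 in cKO 1 to 3, lower than in control in cKO 1 and cKO 3 and within the control range in cKO 2; the ratio was not tested.

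The calls for Mmp2 and Timp2 depended on which libraries were used. With 1 library left out, Mmp2 passed only without cKO 2 (adjusted p 0.0468) and had adjusted p-values of 0.0562 to 0.168 otherwise. Timp2 passed only without cKO 3 (0.0443) and had 0.0508 to 0.195 otherwise, and the log2 changes stayed at 0.63 to 0.95 and 0.38 to 0.51.

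Marker transcripts of several cell types also differed between the groups. Of 5 stromal fibroblast markers Pdgfra and Tcf21 rose. Dcn and Col1a1 were higher in cKO without overlap but did not pass, and Lum overlapped (log2 change 0.22). The 5 together summed to 496, 502 and 580 FPKM in control 1 to 3 and to 913, 682 and 680 FPKM in cKO 1 to 3. Their sum was highest in cKO 1, as were Mmp2, Mmp14 and Timp2, whereas Adamts12 was highest in cKO 2. The sums of cKO 2 and cKO 3 were close, while Mmp2 read 112 and 140 FPKM there. All 5 mast cell markers rose, with sums of 13.3 to 22.0 FPKM in control and 33.6 to 66.4 FPKM in cKO. Of 5 granulosa cell markers Inha fell, from a mean of 2017 to 1265 FPKM (adjusted p 0.0387), and it made up most of their sum, which was 2167 to 2738 FPKM in control and 1512 to 1840 FPKM in cKO. The other 4 did not pass and differed in direction: Nr5a2 and Fshr were lower in cKO without overlap, Foxl2 was higher without overlap (log2 change 0.43), and Amh overlapped (-0.08). Of 5 oocyte markers Zp3 rose, from a mean of 277 to 484 FPKM (adjusted p 0.0454), and the other 4, with overlapping groups, did not pass, Bmp15 with a log2 change of -0.67. The oocyte sum was 647 to 750 FPKM in control and 889.5, 771 and 1249 FPKM in cKO 1 to 3, highest in cKO 3. The 4 macrophage markers in the table summed to 21.1 to 25.6 and 22.5 to 27.3 FPKM, with overlapping groups. Some other lists varied within groups. Surface epithelium markers summed to 108 to 118 FPKM in control and to 84.9, 202 and 137 FPKM in cKO 1 to 3. The theca marker Cyp17a1 read 145, 24.3 and 14.1 FPKM in control and 113, 184 and 58.0 FPKM in cKO. Blood markers summed to 3451, 2105 and 1051 FPKM in control and to 763.5, 414 and 2151 FPKM in cKO. No marker of these lists passed. The part of these cell types in the changes of Mmp2, Timp2 and Adamts12 was not tested. In whole tissue a change in the number of cells of a type and a change in RNA per cell cannot be told apart.

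**Figure D3:**
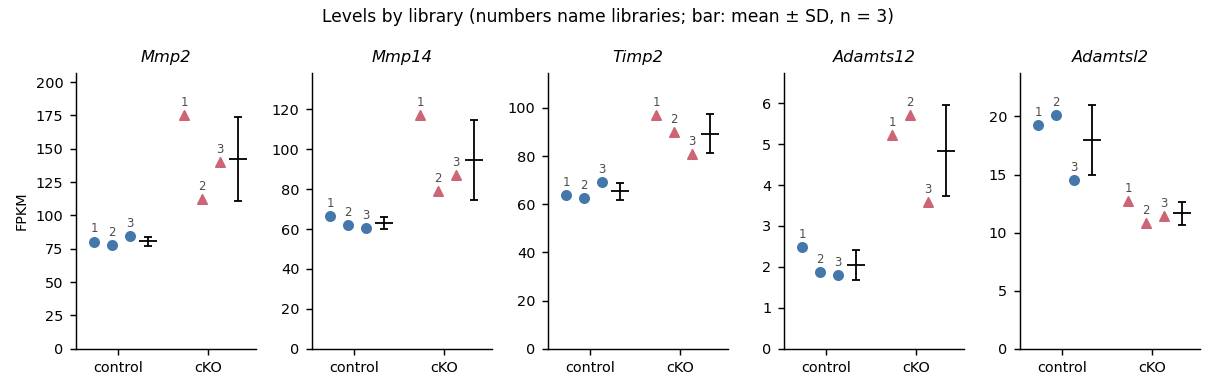
FPKM of Mmp2, Mmp14, Timp2, Adamts12 and Adamtsl2 in each library, with the library number above each point and the mean ± SD of 3 libraries as a bar. The groups do not overlap in any of these 5 genes; Mmp2, Timp2 and Adamts12 passed the test, and Mmp14 and Adamtsl2 did not.

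Of the 5 membrane-anchored MMP genes measured, none passed. In 3 of them the groups did not overlap, all higher in cKO, where 18% of all genes were higher without overlap. Besides Mmp14 the 3 genes were Mmp15, with 5.39 ± 0.28 (control) and 8.03 ± 1.499 FPKM (cKO), and Mmp16, at 2.45 ± 0.38 and 3.65 ± 0.29 FPKM (SD, n = 3). Both encode transmembrane proteases related to MMP14, and their adjusted p-values were 0.0797 and 0.0845. Mmp17, whose product is held to the membrane by a lipid anchor, read 3.27 ± 0.30 and 3.14 ± 0.31 FPKM, and Mmp23 read 51.3 ± 2.56 and 54.8 ± 1.998 FPKM.

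Mmp11 was the one abundant MMP gene with lower values in cKO. Its product is activated inside the cell by furin and is known from stromal cells. Mmp11 read 73.3, 70.4 and 63.6 FPKM in control 1 to 3 and 62.0, 49.1 and 57.1 FPKM in cKO 1 to 3. The groups did not overlap, although control 3 and cKO 1 were close. The log2 change of -0.30 (SE 0.10) missed the threshold, with an adjusted p of 0.137. Its exons share 155 bases with Chchd10 on the opposite strand, which had a mean of 114 FPKM, and with no strand setting stated the fragments of these genes cannot be told apart there. Mmp19 read 1.80, 2.28 and 2.23 FPKM in control and 3.70, 2.64 and 2.54 FPKM in cKO, without overlap and at an adjusted p of 0.201, and its exons overlap Tmem198b on the opposite strand. Mmp28, which encodes epilysin, read 0.84 ± 0.14 and 1.17 ± 0.47 FPKM (SD, n = 3), with overlapping groups.

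Mmp8 and Mmp9 had their highest values in the library with neutrophil transcripts. Mmp8 encodes the collagenase and Mmp9 the gelatinase that neutrophils store in their granules. Mmp8 was listed at 0.02, 0 and 0 FPKM in control 1 to 3 and at 0.02, 0 and 3.90 FPKM in cKO 1 to 3, and an FPKM of 0.02 corresponds to about 1 fragment. It is a member through cKO 3 alone. Mmp9 read 0.82, 0.71 and 1.40 FPKM in control and 0.93, 0.47 and 5.43 FPKM in cKO, so that cKO 1 and cKO 2 lay within or below the control values. Neither passed, at adjusted p-values of 0.455 and 0.64, and without cKO 3 the log2 change of Mmp9 was -0.21 in place of 0.43.

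The neutrophil markers S100a8 and S100a9 read 219 and 307 FPKM in cKO 3 and at most 0.59 and 0.85 FPKM in any other library. Ngp, a neutrophil granule gene, was at 31.7 FPKM in cKO 3 and listed at 0 in the other 5 libraries. Lcn2, whose product binds MMP9, was at 19.8 FPKM in cKO 3 and at 1.11 to 2.91 FPKM elsewhere. The part of these markers in the values of Mmp8 and Mmp9 was not tested.

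**Figure D4:**
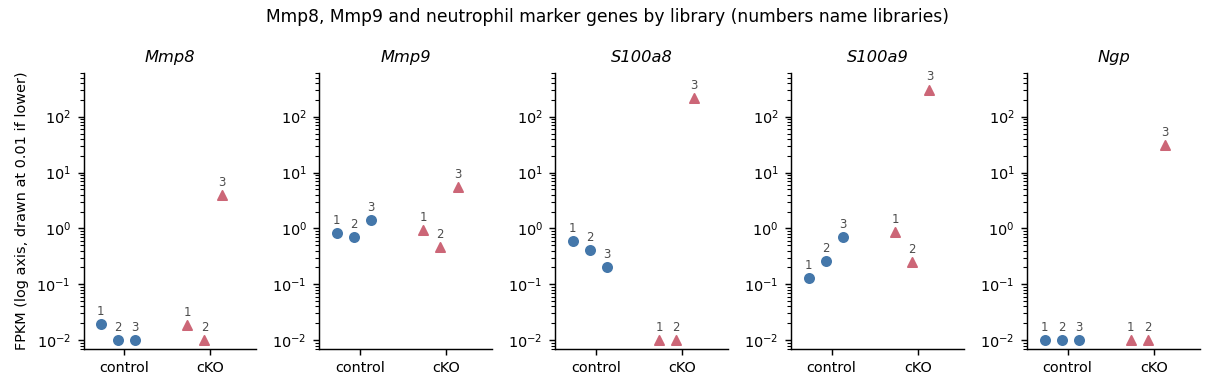
FPKM of Mmp8 and Mmp9 and of 3 neutrophil marker genes in each library on a log axis, with the library number above each point and values under 0.01 drawn at 0.01. cKO 3 is the highest library in all 5 panels, at 3.90 FPKM for Mmp8 and 307 FPKM for S100a9.

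Adamts12 was the ADAMTS gene that rose, out of 15 tested. Its product cuts cartilage oligomeric matrix protein, as does that of Adamts7. Adamts12 read 2.47, 1.87 and 1.80 FPKM in control 1 to 3 and 5.22, 5.70 and 3.60 FPKM in cKO 1 to 3. All cKO libraries lay above the controls, with cKO 3 the lowest of them. The means were 2.05 ± 0.37 and 4.84 ± 1.10 FPKM (SD, n = 3), and the log2 change was 0.93 (SE 0.17, adjusted p 0.0338). With 1 library left out it passed only without cKO 3 (adjusted p 0.0342), with 0.0592 to 0.158 otherwise and log2 changes of 0.82 to 1.09. Its 10921 exon bases and the estimated depth put about 380 to 605 fragments behind the control values and 964 to 1380 behind the cKO values. Adamts12 lies on chromosome 15 (11064790 to 11349231, plus strand). Adamts7 read 4.41 ± 0.66 and 4.97 ± 1.21 FPKM, with overlapping groups.

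Among the proteoglycan-cutting genes none of 5 passed. Adamts4, an aggrecanase gene, read 1.52, 1.27 and 1.13 FPKM in control 1 to 3 and 2.44, 1.98 and 1.88 FPKM in cKO 1 to 3. Its groups did not overlap, at an adjusted p of 0.105. Adamts9, a versican-cutting protease gene, was also higher without overlap, at 8.68 ± 0.97 and 12.3 ± 2.12 FPKM (SD, n = 3; adjusted p 0.105). Adamts1, which is induced at ovulation and cuts versican in the matrix around the egg, read 3.92 ± 0.44 and 4.90 ± 1.01 FPKM with overlapping groups. Adamts15 read 0.57 ± 0.03 and 0.89 ± 0.27 FPKM. Adamts5, the other main aggrecanase gene, had a negative log2 change of -0.20 and overlapping groups.

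The genes of the proteases that trim the amino ends of fibrillar procollagens, Adamts2, Adamts3 and Adamts14, did not pass. Adamts2, the most abundant ADAMTS gene, read 65.9, 64.5 and 56.0 FPKM in control and 62.2, 54.2 and 52.8 FPKM in cKO, so the groups overlapped. Adamts14 read 0.60 ± 0.08 and 0.87 ± 0.31 FPKM and Adamts3 0.50 ± 0.24 and 0.64 ± 0.09 FPKM (SD, n = 3).

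Of the remaining ADAMTS genes, Adamts17 and Adamts16 were higher in cKO without overlap. Adamts17, linked to fibrillin microfibrils, read 1.69 ± 0.37 and 3.00 ± 0.33 FPKM (SD, n = 3), a log2 change of 0.58 at an adjusted p of 0.0613. Adamts16 read 0.87 ± 0.13 and 1.62 ± 0.38 FPKM, at an adjusted p of 0.106. Adamts10, another microfibril-associated protease gene, read 34.7, 39.2 and 30.1 FPKM in control and 27.7, 40.2 and 33.5 FPKM in cKO. Adamts19 read 17.1, 16.4 and 14.0 FPKM in control and 14.6, 16.3 and 16.2 FPKM in cKO. Both had groups that overlapped throughout and log2 changes of -0.04 and -0.01. Adamts6 read 2.10, 1.996 and 1.11 FPKM in control and 1.04, 1.07 and 1.13 FPKM in cKO, where control 3 lay with the cKO libraries.

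No ADAMTS-like gene passed over all libraries. Adamtsl2, whose product binds fibrillin-1 and the latent TGF-beta binding protein LTBP1, read 19.2, 20.1 and 14.5 FPKM in control 1 to 3. It read 12.8, 10.8 and 11.4 FPKM in cKO 1 to 3, below every control library, with control 3 nearest to the cKO values. The log2 change was -0.57 (SE 0.13, adjusted p 0.0579). Without control 3 it passed, with a log2 change of -0.71 and an adjusted p of 0.0192. With any other single library left out it did not pass, at adjusted p-values up to 0.2253. It also passed under 5 other settings, with adjusted p-values of 0.0185 to 0.045, and missed the threshold in the rest. Adamtsl1 read 2.27, 1.93 and 2.86 FPKM in control and 2.86, 2.60 and 2.41 FPKM in cKO, and Adamtsl4, also a fibrillin-binding protein gene, read 2.09, 1.10 and 1.40 FPKM in control and 1.25, 1.01 and 1.16 FPKM in cKO. Adamtsl5 read 0.67 ± 0.38 and 1.14 ± 0.38 FPKM (SD, n = 3). Groups overlapped for all 3 of these genes.

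Of the inhibitors, Timp2 rose, and Timp3 and Timp1 did not pass. Timp3, whose product sticks to the matrix and also inhibits ADAMTS proteases and the sheddase ADAM17, read 34.8, 34.8 and 39.5 FPKM in control 1 to 3 and 47.4, 45.8 and 38.5 FPKM in cKO 1 to 3. The value of cKO 3 lay within the control range, and the adjusted p was 0.175. Timp1 read 29.2, 27.2 and 23.4 FPKM in control and 28.2, 28.0 and 30.4 FPKM in cKO, with overlapping groups and an adjusted p of 0.498. Summed over the 3 TIMP members the level was 128 ± 3.82 (control) and 162 ± 11.5 FPKM (cKO), and summed over the MMP members it was 279 ± 5.004 and 370 ± 60.6 FPKM (SD, n = 3). The ratio of the TIMP sum to the MMP sum lay between 0.446 and 0.483 in the controls and was 0.398, 0.524 and 0.41 in cKO 1 to 3, on both sides of the control range. These sums describe transcripts, not protein or activity, and were not tested.

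The families also differed in their place in the genome. Of 23 MMP genes in the table, 10 lie in a cluster of 427 kb on chromosome 9 (7272514 to 7699585), and 1 of these 10, Mmp8, is a member, through cKO 3. The other 9 were listed at 0 in every library (3 genes) or did not exceed 0.66 FPKM. The abundant MMP genes lie outside the cluster, on chromosomes 4, 8, 10 and 14. Timp1, Timp3 and Timp4 each lie inside a synapsin gene on the opposite strand (Syn1, Syn3 and Syn2), and the means of those host genes were 0.40, 0.42 and 0.61 FPKM. Timp2 lies on chromosome 11 (118301069 to 118355740, minus strand), outside any synapsin gene.

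Promoter sequences from RefSeq (GRCm38.p6) were matched to 19 of the 33 members by symbol. The 4 members with the smallest p among those with an entry free of annotated exons are shown, 3 with higher values in cKO (Adamts12, Adamts17 and Mmp14) and 1 with lower values (Adamtsl2). Each line gives the 250 bases before the annotated start, 5′ to 3′ on the plus strand. Capitals mark matches on either strand to the AP-1 motif TGANTCA, the GC box GGGCGG, the CCAAT box CCAAT, the TATA box TATAAA or the SF-1 half-site AAGGTCA. The windows are chr15:11064523-11064772 for Adamts12, chr7:66839485-66839734 for Adamts17, chr14:54431348-54431597 for Mmp14 and chr2:27079129-27079378 for Adamtsl2.
Adamts12: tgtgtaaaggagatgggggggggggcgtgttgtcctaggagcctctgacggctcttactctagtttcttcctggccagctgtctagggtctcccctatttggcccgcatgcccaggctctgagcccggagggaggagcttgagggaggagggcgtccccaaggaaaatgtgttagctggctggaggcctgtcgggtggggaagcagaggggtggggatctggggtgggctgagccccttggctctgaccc
Adamts17: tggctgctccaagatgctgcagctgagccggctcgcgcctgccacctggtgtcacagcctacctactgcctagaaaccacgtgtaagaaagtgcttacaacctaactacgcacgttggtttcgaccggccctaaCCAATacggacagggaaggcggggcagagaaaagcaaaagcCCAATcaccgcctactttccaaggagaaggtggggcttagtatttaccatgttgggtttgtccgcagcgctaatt
Mmp14: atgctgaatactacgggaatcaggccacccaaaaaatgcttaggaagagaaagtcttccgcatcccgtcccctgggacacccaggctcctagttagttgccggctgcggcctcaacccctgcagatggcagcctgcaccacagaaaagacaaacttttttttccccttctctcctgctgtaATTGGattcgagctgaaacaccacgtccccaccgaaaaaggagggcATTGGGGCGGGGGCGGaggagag
Adamtsl2: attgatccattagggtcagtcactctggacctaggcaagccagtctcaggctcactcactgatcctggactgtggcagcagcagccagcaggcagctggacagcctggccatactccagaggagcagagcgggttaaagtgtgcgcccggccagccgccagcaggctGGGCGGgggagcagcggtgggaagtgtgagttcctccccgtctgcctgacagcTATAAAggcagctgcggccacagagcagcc

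No motif of the 5 was shared by all 4 windows, and the Adamts12 window held none of them. Mmp14 had 2 GC boxes and 2 CCAAT boxes, with 1 CCAAT box overlapping a GC box near the start. Adamts17 had 2 CCAAT boxes, and Adamtsl2 had 1 GC box and 1 TATA box. Over the 19 member windows a GC box was found in 15 (78.9%), against 32.7% of 32851 promoter windows of the same length. The CCAAT box was found in 4 (21.1%, against 33.8%), the TATA box in 2 (10.5%, against 12.4%), the SF-1 half-site in 1 (5.26%, against 4.08%) and the AP-1 motif in 0 (against 6.75%). These shares come from unlike sets. The member windows are 1 per gene, the entry nearest the annotated start, for genes with a mean of at least 0.5 FPKM. The comparison takes every promoter entry, with no limit on level. A difference between the shares therefore cannot be read as a trait of these families. A match of letters is a description and not a binding site.

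Genes that activate, inhibit or work beside these proteases were taken as 5 lists with 65 genes, of which 64 were in the table and 51 were tested. There were 9 that rose and 1 that fell, 19.6% of the 51, where 4.33% of all genes passed. The median log2 change was 0.19. The lists were drawn up with earlier results of these data known, so this share is not independent evidence. None of these 10 genes passed when control 1, control 2 or cKO 1 was left out.

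Among 6 measured genes of plasminogen activation 1 rose and 1 fell. Plau, which encodes urokinase, the activator of plasminogen and through plasmin of several MMP precursors, read 33.6, 30.6 and 34.8 FPKM in control 1 to 3 and 87.9, 67.4 and 66.9 FPKM in cKO 1 to 3. It rose by 1.13 on the log2 scale (SE 0.12, adjusted p 0.0108). Serpine2, which encodes protease nexin-1, an inhibitor of urokinase and thrombin made by granulosa cells, read 689, 680 and 590 FPKM in control and 379, 323 and 403 FPKM in cKO. It fell by 0.83 on the log2 scale (SE 0.11, adjusted p 0.0183). The ratio of Plau to Serpine2 lay between 0.045 and 0.059 in the controls and was 0.232, 0.208 and 0.166 in cKO 1 to 3. It pairs the gene that rose with the gene that fell, and it was not tested. Serpinf2 and Serpina5, also of this list, did not overlap between groups and did not pass. Serpinf2 was higher in cKO, with means of 0.27 and 0.81 FPKM, and Serpina5 lower, with means of 21.2 and 11.5 FPKM. Plat, the tissue-type activator gene, had overlapping groups and a log2 change of 0.07.

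Among 15 measured genes of activation, anchoring and clearance 3 rose. Pcsk6, a proprotein convertase gene, rose from 46.3 ± 9.49 to 101 ± 28.7 FPKM (SD, n = 3; limma adjusted p 0.0374). Reck, a membrane-anchored inhibitor of MMP2, MMP9 and MMP14, rose from 8.26 ± 0.37 to 12.2 ± 1.62 FPKM, at an adjusted p of 0.0464. Spock2, a testican proteoglycan gene, rose from 28.6 ± 0.78 to 45.6 ± 6.43 FPKM. Furin, which encodes the convertase that activates MMP11 and MMP14, read 26.3 ± 2.36 and 26.3 ± 2.27 FPKM. Lrp1, a clearance receptor gene for proteases and their inhibitors, was lower in cKO without overlap, and its adjusted p of 0.0929 missed the threshold.

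Among 3 measured astacin-type genes Bmp1, which encodes the protease that trims the carboxyl ends of procollagens, rose from 27.0 ± 0.65 FPKM to a level of 38.2 ± 1.69 FPKM (SD, n = 3; limma adjusted p 0.0213). Of 9 measured ADAM genes Adam19 and Adam12 rose (log2 changes of 0.60 and 0.82), and Adam17 and Adam10, the main sheddase genes, did not pass, with log2 changes of -0.30 and -0.02. Of 18 measured matrix substrates and partners Fn1, the fibronectin gene, rose by 0.44 (limma adjusted p 0.0338). Fbn2, a fibrillin gene, rose by 0.65, at an adjusted p of 0.0498, just under the threshold. Fbn1 had a log2 change of 0.59 at an adjusted p of 0.0537, and Vcan, the versican gene, had 0.26 at an adjusted p of 0.336.

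**Figure D5:**
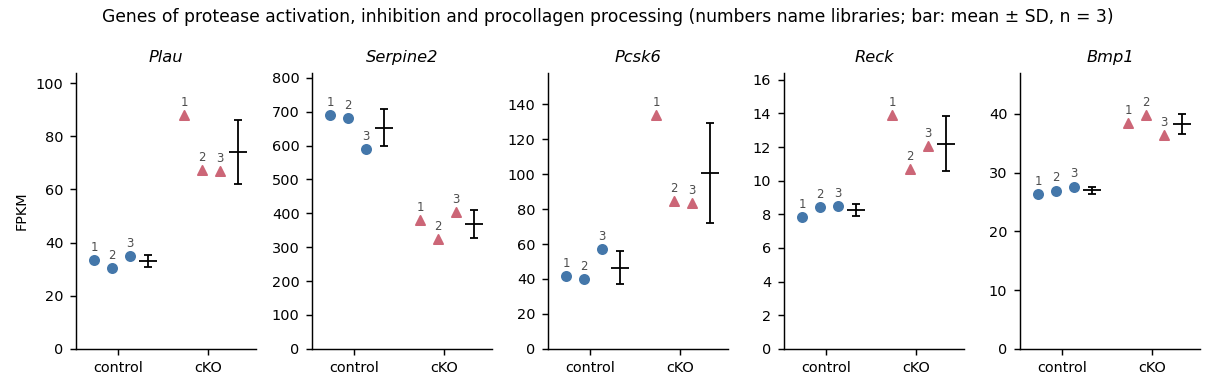
FPKM of Plau, Serpine2, Pcsk6, Reck and Bmp1 in each library, with the library number above each point and the mean ± SD of 3 libraries as a bar. The groups do not overlap in any panel; Serpine2 is lower in cKO, at 323 to 403 FPKM against 590 to 689 FPKM, and the other 4 genes are higher.

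The 18 genes of these families below 0.5 FPKM were Mmp1a, Mmp1b, Mmp3, Mmp7, Mmp10, Mmp12, Mmp13, Mmp20, Mmp21, Mmp24, Mmp25 and Mmp27, Adamts8, Adamts13, Adamts18 and Adamts20, Adamtsl3, and Timp4. Mmp1a, Mmp10, Mmp20 and Mmp21 were listed at 0 in every library. Nearest to the limit were Timp4, the inhibitor gene with the lowest level, with a mean of 0.44 FPKM, and Adamts8, with 0.41 FPKM. Just above the limit were Adamts3 with 0.57 FPKM and Mmp8 with 0.66 FPKM.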

How the data were processed

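Transcript levels were measured by RNA sequencing in 6 libraries of pooled mouse ovaries, 3 control and 3 cKO by genotype label, numbered in deposit order as names only. The authors deposited FPKM per Ensembl gene, and the submitters' processing notes name TopHat2 2.0, Cufflinks 2.0 and mm10; the table itself names no unit, and FPKM was taken from the tool, the value format and the steps of low values with gene length. Annotation, strand and scaling steps: not given in the sources used here. Because FPKM is relative to a library's total, abundant transcripts that increase pull the other values down. P-values set the difference between groups against the spread between these pools, not between single mice, and limma estimates that spread partly from other genes.

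Here limma 3.58.1 in R 4.3.3 (lmFit, eBayes with a mean-variance trend) compared cKO with control on log2(FPKM + 1) over the 14934 genes with a mean FPKM of at least 0.5. Benjamini-Hochberg adjustment ran over all of these genes, and an adjusted p below 0.05 passed. Fold changes on this scale understate low genes. Counts were not used, so no count model was fitted. Depth was estimated from values below 0.15 FPKM, each read as 1 fragment, in genes with 1 transcript and at least 1500 exon bases, less 150. Coordinates (GRCm38, 1-based) and exon overlaps are from GENCODE M21, where all 33 members were found. The procedure was tested on simulated data.

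Members and lists were chosen with earlier results of these data known. Values per library are given for members that passed, the 3 most abundant of each family and the smallest p of each role group. Of each other list up to 3 passing genes are named, with values per library, group means or log2 changes. Values per library of Mmp9, Adamts6, Lcn2 and the cell markers were chosen with those values already seen. So was the naming of Lrp1, Plat, Serpinf2, Serpina5, Furin, Adam10, Adam17, Fbn1 and Vcan. The floxed gene is not reported here. Alternatives were pseudocounts of 0.1 and 0.5, other filters, normalisations and variance settings, and leaving out libraries.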

Additional observations from a re-analysis of the deposited data

How the results depend on the processing

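No paired analysis was possible because replicate numbers are absent from the labels. The 17 alternatives kept the direction of 24 of the 33 members, Mmp2, Timp2 and Adamts12 included. The count of members that rose, 3 as reported, was 0 with no filter on low values (0.0168% of all genes higher) and 6 with array weights (6.97%). It ran from 0 to 2 with 1 library left out. The count that fell, 0 as reported, was 1 under 5 settings, each time Adamtsl2. These were FPKM means of 2 or more, quantile normalisation, median centring, array weights and robust eBayes. The shares of all genes that passed as lower were 2.76%, 2.82%, 3.86%, 4.98% and 2.38%, in that order. With 1 library left out the count of members that fell ran from 0 to 1. At an unadjusted p below 0.05 in the main fit, 2 members were lower. With quantile normalisation Mmp14 passed and Adamts12 did not (adjusted p 0.051), and without a mean-variance trend Timp2 did not (0.0614). Over all genes, 646 passed as reported, and 5, 2, 660, 2, 78 and 385 passed without control 1, 2 and 3 and cKO 1, 2 and 3. Of the list genes, where 9 rose and 1 fell, 0 and 0 passed with no filter and 17 and 2 with array weights. With 1 library left out 0 to 8 rose and 0 to 1 fell. The sample title of cKO 1 carries a number close to those of the controls. The titles of cKO 2 and cKO 3 carry higher numbers with no control among them, and what the numbers stand for is not given. For these libraries title number and genotype cannot be told apart. In the fit of the 3 controls against cKO 1 the lone cKO library is assumed to vary as the controls do. No count of passing genes is therefore given for that fit.

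Direction changed in 9 members, none of which passed. With 1 library left out the log2 change ran from -0.0872 to 0.048 for Adamts19, from -0.1726 to 0.0877 for Adamts10, from -0.0286 to 0.2224 for Adamts7, from -0.0848 to 0.016 for Mmp17 and from -0.2132 to 0.8511 for Mmp9. Without control 3 and cKO 3 it was -0.0652 for Mmp9, -0.0004 for Mmp8 and -0.0045 for Timp1. For the 3 controls against cKO 1 it was 0.0202 for Mmp17, -0.0161 for Mmp9 and 0.004 for Adamts2, and with quantile normalisation it was -0.0056 for Adamtsl1. The cause was not tested. Depth limits the low genes: Mmp8 outside cKO 3 rests on about 1 fragment or none.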
